A study of Mus musculus with 9 samples.

Results

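The gastrocnemius, the large calf muscle, of mdx mice given the drug GTx-026 was set against that of wildtype mice given vehicle only. The comparison takes the 3 libraries labelled mdx with GTx-026 and the 3 libraries labelled wildtype with vehicle, 6 of the 9 libraries of the series. The remaining 3 libraries come from mdx mice given vehicle, and they are used to show where a gene stood in dystrophic muscle without the drug. GTx-026 was given under the skin at 10 mg/kg, and the labels name the strain C57BL/6 for wildtype and mdx libraries alike. The series title places the drug among androgen receptor agonists studied for muscle mass and function in Duchenne muscular dystrophy. The groups compared differ in genotype and in drug at the same time, so the parts of a difference that belong to each cannot be told apart from these 6 libraries alone. The design text gives 3 to a group but ties no library to an animal, so a p-value here measures the spread between these libraries, which may be technical. Libraries are numbered 1 to 3 within a group as a name only.

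The mdx mouse carries a mutation in Dmd, the gene of dystrophin, the protein that ties the actin skeleton of a muscle fibre to the laminin sheath around it. Fibres without dystrophin tear under load, die and regenerate, and the muscle fills with macrophages and connective tissue. The androgen receptor is a nuclear receptor that binds DNA once a hormone or drug is bound to it. In muscle its known responses include enzymes of polyamine synthesis, such as ornithine decarboxylase, and regulators of fibre growth.

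Reads listed per library were estimated at 25.1 M to 38.0 M (M, mega). The markers of skeletal fibres checked here stood at high levels in every library, with creatine kinase Ckm between 19010 and 40440 CPM and skeletal actin Acta1 between 27480 and 48660 CPM (CPM, reads of a gene per M reads of its library after rescaling). The treated libraries were the most alike, with a median correlation of log values within the group of 0.981 to 0.983, against 0.970 to 0.977 among wildtype libraries. The mdx vehicle libraries spread most, and library 1 of that group was lowest at 0.945. Slow-fibre genes differed between libraries of 1 group more than between groups: slow myosin Myh7 was at 315, 3938 and 1135 CPM in the wildtype libraries, and at 339, 735 and 5824 CPM in the treated libraries.

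Of 15372 genes tested, 163 rose and 77 fell in treated mdx muscle against wildtype (limma, Benjamini-Hochberg adjusted p under 0.05 over all genes). This is 1.56% of the genes, 1.06% higher and 0.501% lower. All 240 had no overlap between the 3 treated and the 3 wildtype libraries, a separation that 3215 genes showed in all (20.9%), 11% of the tested genes being higher and 9.91% lower. The smallest change among the 240 was 0.63 on the log2 scale and the median size was 1.25, while the median over all genes was -0.01. A rise of 2 or more was seen for 29 genes and a fall of 2 or more for 8. Against mdx vehicle, the treated libraries had 2 genes past the threshold of 15372 (0.013%), both higher (0.013%) and none lower (0%), with 472 at an unadjusted p under 0.05. In that comparison the groups did not overlap for 1059 genes (6.89%), 3.35% higher and 3.54% lower. The count of 240 fell to 144, 68 and 50 without wildtype library 1, 2 or 3, and to 58, 88 and 71 without treated library 1, 2 or 3. It was 371 without mdx vehicle library 1. That library is in neither group compared, but it enters the shared estimate of the spread and the rescaling. On the scale deposited by the authors, without rescaling, the count was also 240, but 193 of those were higher and 47 lower.

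**Figure D1:**
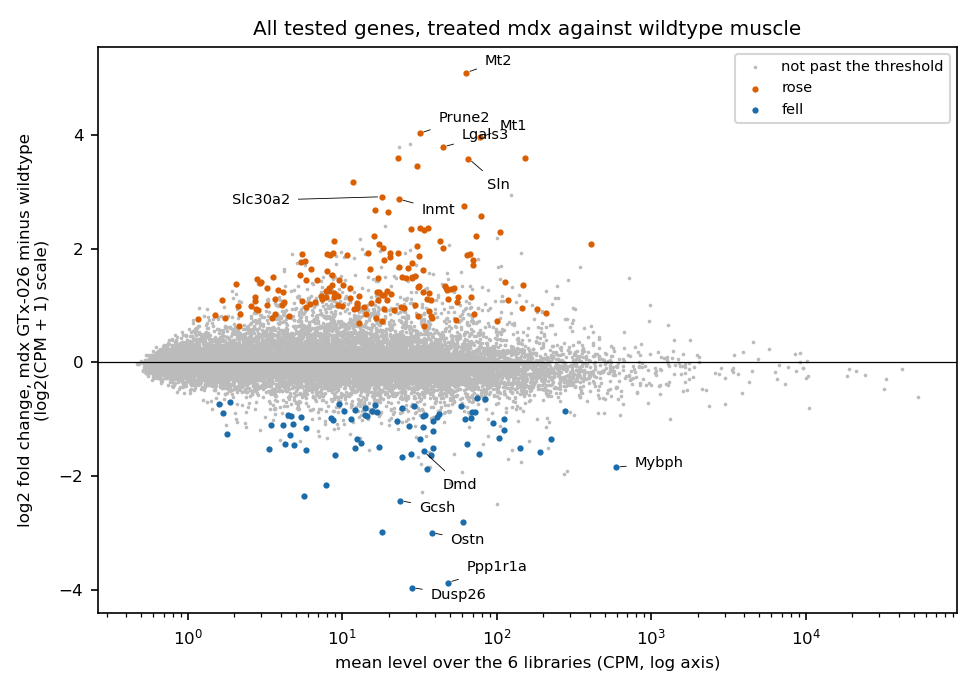
Log2 fold change of each of the 15372 tested genes in treated mdx against wildtype muscle (y axis, log2(CPM + 1) scale), against its mean level over the 6 libraries (x axis, CPM on a log axis). The 163 genes that rose are orange, the 77 that fell are blue, and the metallothionein gene Mt2 stands highest at 5.10.

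Dmd, on chromosome X from 82948870 to 85206141 (GRCm38, GENCODE vM21), was at 41.2, 60.4 and 51.3 CPM in the wildtype libraries. In the treated mdx libraries it was at 17.5, 14.1 and 17.9 CPM, and in the mdx vehicle libraries at 11.6, 21.8 and 21.5 CPM. Both mdx groups lay wholly below wildtype, and they overlapped each other. The fall against wildtype was -1.56 ± 0.24 (log2, SE; limma adjusted p = 0.0178), and the difference from mdx vehicle was -0.10 ± 0.24 (limma adjusted p = 1). The call for Dmd was lost without wildtype library 2 or 3 or without any treated library, with adjusted p up to 0.0893. Dmd was the single call among the 16 measured genes of the dystrophin complex (6.25%, against 1.56% of all genes). Of the 16, 9 were higher and 7 lower and the median change was 0.19. Cav3, caveolin-3 of the fibre membrane, had 98.8, 78.5 and 87.5 CPM in treated muscle against 46.5, 54.9 and 51.6 CPM in wildtype, without overlap, but its adjusted p in limma was 0.0837. Utrophin, the relative of dystrophin encoded by Utrn, overlapped between the groups, with means of 19.9 ± 2.75 CPM treated and 22.0 ± 2.13 CPM wildtype (SD, n = 3).

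Mt2, Mt1 and Slc30a2, 3 genes that handle zinc, were among the 12 largest rises. Metallothioneins are small cysteine-rich proteins that bind zinc and copper, and their genes are known to be switched on by the zinc sensor MTF1 through metal response elements and by glucocorticoid. Slc30a2 encodes a transporter that moves zinc out of the cytosol into vesicles. The RefSeq sequence (GRCm38.p6) from 250 bases before to 30 bases after the annotated start of each gene is shown for the metallothionein genes, 5′ to 3′ on the gene's strand, since they gave 2 of the 3 largest rises. Capitals mark every match to the core of the metal response element, TGCACNC or TGCGCNC, on either strand, and no matches overlap. The windows lie on the plus strand at chr8:94172368-94172647 for Mt2 and chr8:94178839-94179118 for Mt1.
Mt2: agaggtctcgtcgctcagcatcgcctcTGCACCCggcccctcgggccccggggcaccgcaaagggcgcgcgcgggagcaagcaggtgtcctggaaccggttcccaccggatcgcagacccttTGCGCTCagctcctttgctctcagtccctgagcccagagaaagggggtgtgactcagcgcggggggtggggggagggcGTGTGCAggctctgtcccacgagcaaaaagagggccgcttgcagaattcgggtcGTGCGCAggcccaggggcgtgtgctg
Mt1: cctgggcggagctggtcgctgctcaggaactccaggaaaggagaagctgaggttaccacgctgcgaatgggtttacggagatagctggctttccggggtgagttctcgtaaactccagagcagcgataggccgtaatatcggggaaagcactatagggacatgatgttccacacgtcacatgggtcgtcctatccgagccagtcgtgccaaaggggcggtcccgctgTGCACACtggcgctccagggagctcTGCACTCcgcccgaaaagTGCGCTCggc
The Mt2 window holds 4 matches and the Mt1 window 3. Of 32851 RefSeq promoter windows of the same 280 bases, 24.081% hold at least 1 match, 1.73% hold 3 or more and 0.405% hold 4 or more. A match is a description of letters and not a site known to be bound.

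Mt2 was at 2.90, 3.13 and 1.91 CPM in wildtype muscle and at 140, 96.4 and 135 CPM in treated mdx muscle. The mdx vehicle libraries were at 27.4, 103 and 73.7 CPM, above all wildtype libraries and overlapping the treated ones. The rise against wildtype was 5.10 ± 0.41 (log2, SE; limma adjusted p = 0.000898), and the difference from mdx vehicle was 1.03 ± 0.41 (limma adjusted p = 1). Mt1 was at 10.6, 6.95 and 8.47 CPM in wildtype and at 142, 146 and 157 CPM in treated muscle, with 32.6, 139 and 95.4 CPM in mdx vehicle. All 3 treated libraries were above the other 6, and the rise against wildtype was 3.96 ± 0.42 (limma adjusted p = 0.0044). The difference of Mt1 from mdx vehicle, 0.96 ± 0.42, did not pass. Mt1 and Mt2 are neighbours on chromosome 8, and 73.5% of the exon bases of Mt2 lie opposite exons of Gm45774, with the use of strand in counting not given in the sources used here. Slc30a2 was at 2.35, 3.68 and 3.63 CPM in wildtype muscle, 1.62, 3.29 and 3.38 CPM in mdx vehicle and 24.4, 52.2 and 22.0 CPM in treated muscle. Here the mdx vehicle libraries lay within the wildtype range or below it, and the treated libraries were above both. The rise of Slc30a2 was 2.92 ± 0.34 against wildtype (limma adjusted p = 0.00484) and 3.10 ± 0.34 against mdx vehicle (limma adjusted p = 0.0337). The second of these calls was lost on leaving out any library other than treated library 2, with adjusted p of 0.0546 to 0.162, in the model of the 6 mdx libraries alone (0.234) and with a pseudocount of 5 (0.0702). Of the 11 measured genes of the metallothionein and zinc list these 3 rose and none fell, against 1.06% of all genes called higher, and the median was 0.20. In that list 9 were higher, 6 of them without overlap, against 11% of all genes. The zinc importer Slc39a14 reached 18.0, 13.9 and 21.9 CPM against 7.79, 9.11 and 9.49 CPM in wildtype, with an adjusted p of 0.0735 in limma. Mtf1 itself did not pass the test, at 20.6 CPM on average in treated and 24 CPM in wildtype muscle.

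Inmt, an enzyme that moves methyl groups onto amines, was the other gene past the threshold against both wildtype and mdx vehicle. It was at 6.00, 4.2 and 4.36 CPM in wildtype muscle, 5.79, 9.27 and 7.57 CPM in mdx vehicle and 38.3, 40.9 and 45.9 CPM in treated muscle. The treated libraries were close to each other, and the highest of the other 6 was at 9.27 CPM, so no treated library overlapped either group. The rise was 2.88 ± 0.19 against wildtype (limma adjusted p = 0.000462) and 2.34 ± 0.19 against mdx vehicle (limma adjusted p = 0.00614). The latter call was lost without mdx vehicle library 3 (adjusted p = 0.0634) or treated library 1 (0.0581). Inmt lies on chromosome 6 from 55170626 to 55175043 (GRCm38, GENCODE vM21), on the minus strand.

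A list drawn up as androgen-responsive genes and genes of polyamine metabolism had 23 measured members. Of these, 18 were higher than in wildtype and 5 lower, 6 rose and none fell (26.1% called, against 1.56% of all genes), and 11 were higher and 1 lower without overlap against 11% and 9.91%. The median change was 0.66 against wildtype and 0.38 against mdx vehicle, while mdx vehicle muscle stood at 0.03 against wildtype. The list was drawn up with earlier results of these libraries known, so its count is no independent evidence of a direction. The 6 that rose were Inmt, Slc30a2, Myl4, Fkbp5, Odc1 and Tiparp, and the embryonic myosin light chain Myl4 and the zinc transporter Slc30a2 also stand on other lists here.

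Odc1 encodes ornithine decarboxylase, the first enzyme of polyamine synthesis. It was at 96.0, 66.5 and 65.1 CPM in wildtype muscle, 80.8, 98.7 and 101 CPM in mdx vehicle and 172, 145 and 170 CPM in treated muscle. The treated libraries were above all others, with a rise of 1.10 ± 0.18 against wildtype (limma adjusted p = 0.0186) and a difference of 0.79 ± 0.18 from mdx vehicle (limma adjusted p = 0.716). Of its 50-base words 24.3% occur in other genes, pseudogenes included, so its reads are not all its own with certainty. Amd1, the decarboxylase that supplies the aminopropyl groups of spermidine and spermine, was at 109, 179 and 164 CPM in wildtype muscle, 91.4, 102 and 73.3 CPM in mdx vehicle and 572, 455 and 250 CPM in treated muscle. No treated library overlapped either group, yet the adjusted p in limma was 0.0531 against wildtype, for a difference of 1.44 ± 0.30, and 0.147 against mdx vehicle, for a difference of 2.18 ± 0.30. Its near copy Amd2, with which Amd1 shares 76.7% of its 50-base words, differed by 1.33 ± 0.29 (limma adjusted p = 0.0602), and reads of these genes may be split between them. Smox, spermine oxidase, was at 491, 276 and 139 CPM in treated and at 79.1, 102 and 171 CPM in wildtype muscle, and the groups overlapped. Spermine synthase Sms was the member lower without overlap, at 61.7 CPM on average against 82.5 CPM in wildtype, with a change of -0.42.

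Fkbp5, a chaperone partner of steroid receptors that androgen and glucocorticoid are known to induce, was at 10.1, 10.7 and 12 CPM in wildtype and at 73.1, 62.8 and 47.2 CPM in treated muscle. The mdx vehicle libraries ran from 13 to 56.4 CPM, above wildtype and overlapping the treated group. Its rise against wildtype was 2.36 ± 0.42 (limma adjusted p = 0.0281). Tiparp, an ADP-ribosyltransferase of the aryl hydrocarbon receptor pathway, was at 12.3, 17.4 and 17.6 CPM in wildtype muscle, 14.8, 17.1 and 15.7 CPM in mdx vehicle and 39.9, 27.9 and 28.3 CPM in treated muscle. Both control groups lay together and the treated libraries above them, with a rise of 0.98 ± 0.19 against wildtype (limma adjusted p = 0.0391) and a difference of 0.95 ± 0.19 from mdx vehicle (limma adjusted p = 0.47). Calls for Fkbp5 and Tiparp were lost on leaving out any of the 6 libraries, and for Tiparp also mdx vehicle library 3, with adjusted p up to 0.109 and 0.122. The call for Odc1 was lost without wildtype library 2 or 3 or treated library 1 or 3, with adjusted p up to 0.0976. The half-site of androgen and glucocorticoid receptors, searched as AGAACA on either strand in the same 280-base windows, had no match for Inmt, Fkbp5, Odc1, Tiparp, Amd1, Slc30a2, Mt1 or Mt2, and 17.847% of all windows hold it. No match says only that these letters are not in this window.

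**Figure D2:**
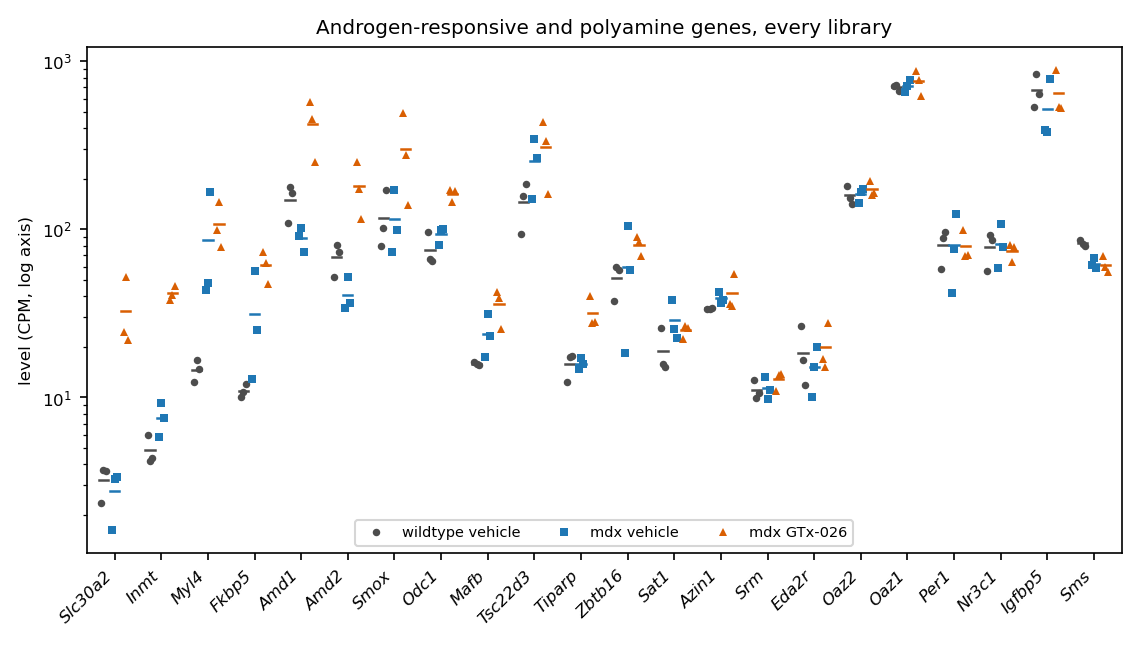
Level of 22 of the 23 measured androgen-responsive and polyamine genes in every library (y axis, CPM on a log axis), with circles for wildtype vehicle, squares for mdx vehicle, triangles for mdx GTx-026 and bars for the group means. For Inmt and Slc30a2 the lowest treated libraries, at 38.3 and 22.0 CPM, stand above every other library.

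Other genes among the 12 largest rises included Prune2, Mettl21e and Rrad. Prune2, which encodes a protein with a BNIP2-type domain, was at 1.79, 4.88 and 2.2 CPM in wildtype and at 56.3, 56.6 and 68.7 CPM in treated muscle. The mdx vehicle libraries, at 24.3, 47.4 and 44.2 CPM, lay between the groups, and the rise was 4.03 ± 0.31 (limma adjusted p = 0.00089). Mettl21e, a methyltransferase-like gene of skeletal muscle, was at 0.586, 1.75 and 2.42 CPM in wildtype and at 15.6, 29.5 and 21.0 CPM in treated muscle. Its mdx vehicle libraries, at 9.71, 14.2 and 8.66 CPM, again lay between, with a rise of 3.18 ± 0.32 against wildtype (limma adjusted p = 0.00334). Differences from mdx vehicle were 0.68 ± 0.31 for Prune2 and 0.94 ± 0.32 for Mettl21e, and neither passed. Rrad, a small GTPase that restrains voltage-gated calcium channels, was at 3.76, 6.6 and 2.86 CPM in wildtype and at 60.03, 41.4 and 69.5 CPM in treated muscle, a rise of 3.45 ± 0.48 (limma adjusted p = 0.0107). One mdx vehicle library, at 46.7 CPM, fell inside the treated range. The call for Rrad was lost without wildtype library 3 or treated library 1 or 3, with adjusted p up to 0.0596.

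Globin genes gave 2 of the 12 largest rises. Hbb-b1, a beta-globin gene, was at 17.6, 13.1 and 38.4 CPM in wildtype muscle, 93.1, 35.5 and 136 CPM in mdx vehicle and 322, 370 and 150 CPM in treated muscle. Hbb-b2, its neighbouring copy, was at 11.9, 4.21 and 20.9 CPM in mdx vehicle, above wildtype and overlapping treated muscle. It was at 2.45, 1.17 and 3.81 CPM in wildtype, and at 51.0, 60.3 and 18.8 CPM in treated muscle. All treated libraries were above all wildtype ones for both, and both rose by 3.59 on the log2 scale (SE 0.54 and 0.57; limma adjusted p = 0.0154 and 0.0185). The beta-globin genes Hbb-bs and Hbb-bt did not follow them. Hbb-bs was at 109, 93.2 and 240 CPM in wildtype and at 19.5, 251 and 86.5 CPM in treated muscle, with a difference of -0.82 ± 1.18. The alpha-globin genes Hba-a1 and Hba-a2 overlapped between the groups, with differences of 0.63 ± 0.47 and 0.61 ± 0.50. As background, Hbb-bs and Hbb-bt are the adult beta-globin genes of the haplotype that C57BL/6 mice carry, while Hbb-b1 and Hbb-b2 name the copies of another haplotype. Hbb-b1 and Hbb-b2 were the called members among the 10 measured erythroid genes (20%, against 1.56% of all genes). Of those 10, 6 were higher. The summed level of the 10 ran from 414 to 1043 CPM in wildtype and from 710 to 1536 CPM in treated libraries. The globins are near-identical copies, so reads may be split between them, and the part of blood in the sample was not tested. Calls were lost without wildtype library 2 or treated library 1 or 2 for both, and for Hbb-b2 also without wildtype library 1 or 3, with adjusted p up to 0.0709 for Hbb-b1 and 0.0813 for Hbb-b2.

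**Figure D3:**
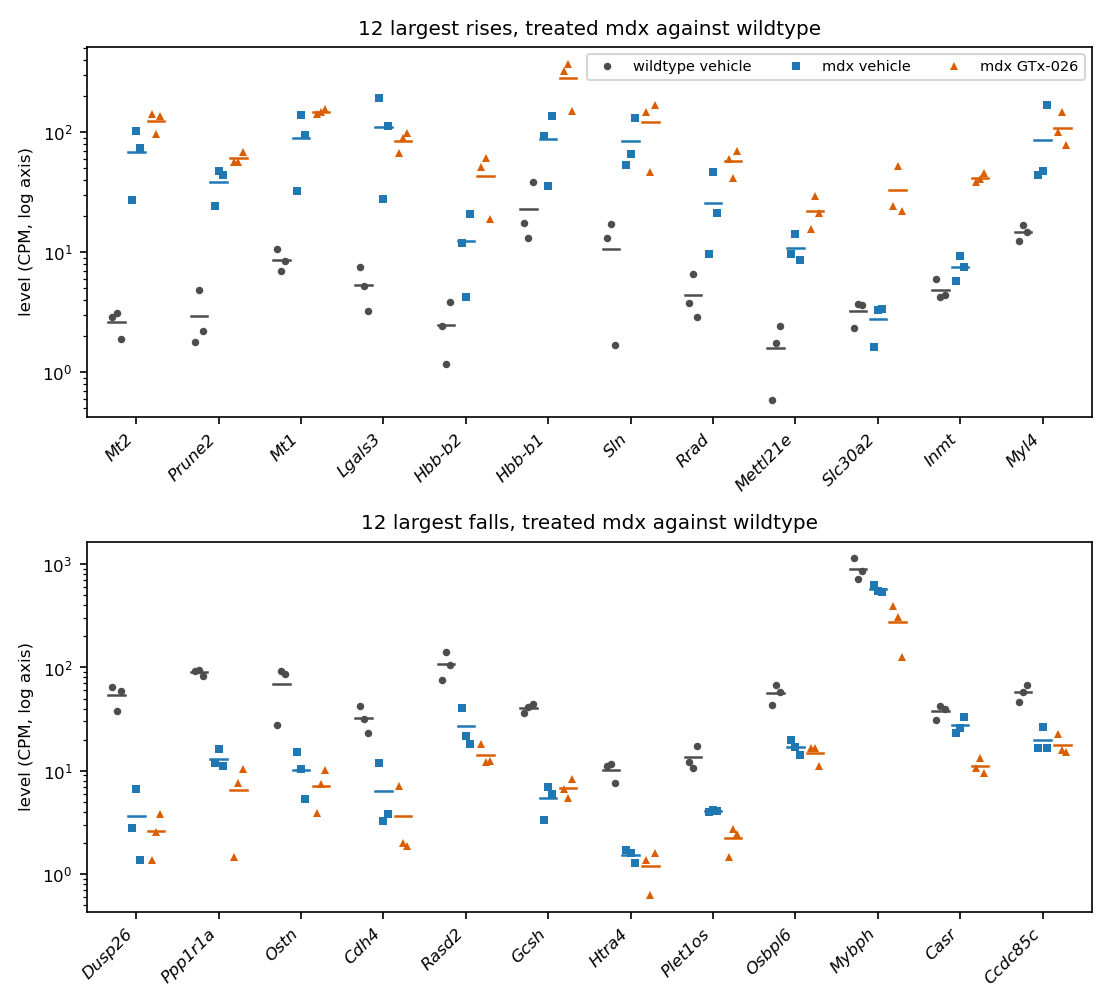
Level in every library (y axis, CPM on a log axis) of the 12 genes with the largest rise and the 12 with the largest fall among called genes at 5 CPM or more, with circles for wildtype vehicle, squares for mdx vehicle, triangles for mdx GTx-026 and bars for group means. Slc30a2, Inmt and Casr are members where mdx vehicle overlaps wildtype and treated muscle does not, while Dusp26, at 1.35 to 6.69 CPM in the mdx libraries of both kinds, shows both mdx groups far below wildtype.

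Among the 12 largest falls, Dusp26, a phosphatase that acts on MAP kinases, was at 64.3, 37.7 and 59.7 CPM in wildtype and at 1.35, 2.57 and 3.81 CPM in treated muscle. The mdx vehicle libraries, at 2.77, 6.69 and 1.35 CPM, overlapped the treated ones, and the change against wildtype was -3.96 ± 0.42 (limma adjusted p = 0.0044). Ppp1r1a, inhibitor 1 of protein phosphatase 1, was at 93.0, 95.1 and 82.5 CPM in wildtype muscle, 12, 16.2 and 11.1 CPM in mdx vehicle and 1.47, 7.53 and 10.3 CPM in treated muscle. Here the 3 groups stood in order without overlap, with a change of -3.88 ± 0.46 against wildtype (limma adjusted p = 0.00592) and of -1.17 ± 0.46 against mdx vehicle (limma adjusted p = 1). Rasd2, a small GTPase of the Ras family, had the same order, at 75.5, 141 and 106 CPM in wildtype muscle, 40.9, 21.6 and 18.2 CPM in mdx vehicle and 18.1, 12.1 and 12.4 CPM in treated muscle. Its change against wildtype was -2.81 ± 0.32 (limma adjusted p = 0.00461), and that against mdx vehicle, -0.81 ± 0.32, did not pass. Ostn, which encodes the secreted muscle peptide musclin, was at 27.5, 91.6 and 87.2 CPM in wildtype and at 3.88, 7.37 and 10.2 CPM in treated muscle (-3.0 ± 0.51, limma adjusted p = 0.024). Cdh4, the adhesion protein R-cadherin, was at 42.7, 31.4 and 23.2 CPM in wildtype and 7.11, 1.98 and 1.85 CPM in treated muscle (-2.99 ± 0.50, limma adjusted p = 0.0224). For Ostn and Cdh4 the mdx vehicle libraries also lay below wildtype and overlapped the treated ones. Ostn was not called without wildtype library 2 or 3 or any treated library (adjusted p up to 0.116), nor Cdh4 without any wildtype library or treated library 2 or 3 (up to 0.0972).

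Gcsh encodes the lipoate-carrying H protein of the glycine cleavage system. It was at 36.2, 41.5 and 44.2 CPM in wildtype muscle, 3.36, 6.90 and 5.99 CPM in mdx vehicle and 6.61, 5.46 and 8.25 CPM in treated muscle, so both mdx groups lay far below wildtype and overlapped. The change was -2.43 ± 0.24 (limma adjusted p = 0.00254). Shmt1, the cytosolic enzyme that exchanges serine and glycine, also fell, from 15.1, 20.2 and 19.7 CPM to 7.90, 6.59 and 5.25 CPM (-1.35 ± 0.19, limma adjusted p = 0.0107). These were the 2 calls, both lower, among 12 measured glycine and one-carbon genes (16.7%, against 1.56% of all genes). Of the 12, 6 were higher and 6 lower with a median of 0.03. For Shmt1 the mdx vehicle libraries, at 9.18, 11.1 and 8.53 CPM, lay between the groups. Its difference from mdx vehicle, -0.49 ± 0.19, did not pass. Shmt1 was not called without wildtype library 2 or 3, with adjusted p up to 0.0658.

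Casr, the calcium-sensing receptor of the cell surface, set treated muscle apart from both other groups. It was at 31.1, 42.3 and 39.4 CPM in wildtype muscle, 23.4, 26.2 and 33.4 CPM in mdx vehicle and 10.6, 13.4 and 9.55 CPM in treated muscle. The wildtype and mdx vehicle ranges overlapped and the treated range was below both, with a change of -1.66 ± 0.19 against wildtype (limma adjusted p = 0.00461) and of -1.23 ± 0.19 against mdx vehicle (limma adjusted p = 0.184). Mybph, myosin-binding protein H of the thick filament, was at 1139, 726 and 855 CPM in wildtype muscle, 632, 548 and 544 CPM in mdx vehicle and 391, 308 and 125 CPM in treated muscle. The 3 groups again did not overlap, and the change against wildtype was -1.84 ± 0.37 (limma adjusted p = 0.0461). The change of Mybph against mdx vehicle, -1.21 ± 0.37, did not pass. The call for Mybph was lost when any library other than mdx vehicle library 1 was left out, with adjusted p up to 0.161, and in the model of the 6 libraries alone. Exons of Adora1 on the opposite strand cover 49.9% of the exon bases of Mybph.

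The remaining 4 of the 12 largest falls were genes of varied function. Htra4, a secreted serine protease, was between 7.55 and 11.7 CPM in wildtype and between 0.628 and 1.58 CPM in treated muscle (-2.35 ± 0.22, limma adjusted p = 0.0021). Plet1os, an RNA antisense to Plet1, was between 10.6 and 17.4 CPM in wildtype and between 1.47 and 2.73 CPM in treated muscle (-2.16 ± 0.22, limma adjusted p = 0.00311). Its mdx vehicle libraries, at 4.02 to 4.12 CPM, lay between, and the difference from them, -0.68 ± 0.22, did not pass. Osbpl6, an oxysterol-binding protein relative, went from 43.6, 67.2 and 58.5 CPM to 16.5, 16.5 and 11.1 CPM (-1.87 ± 0.21, limma adjusted p = 0.00468). Ccdc85c, a coiled-coil protein, went from 46.6, 58.0 and 67.4 CPM to 22.7, 15.8 and 15.1 CPM (-1.64 ± 0.23, limma adjusted p = 0.0115), a call lost without wildtype library 2 or 3 or treated library 2 or 3, with adjusted p up to 0.0645. For Htra4, Osbpl6 and Ccdc85c the mdx vehicle libraries also lay below wildtype and overlapped the treated ones. Exons of Plet1 on the opposite strand cover 21% of the exon bases of Plet1os, and without strand, reads from that part cannot be told apart.

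Genes of the nerve-muscle junction and of denervated fibres were mostly higher. Of 17 measured members 14 were higher and 3 lower, 4 rose and none fell against a background of 1.06% and 0.501%, and 9 were higher and 1 lower without overlap against 11% and 9.91%. The median was 0.71 against wildtype, 0.68 in mdx vehicle against the same wildtype libraries, and 0.10 against mdx vehicle. Musk, the receptor kinase that gathers acetylcholine receptors under the nerve ending, was at 10.1, 14.3 and 12.5 CPM in wildtype muscle, 13.7, 34.1 and 14.6 CPM in mdx vehicle and 43.3, 41.0 and 38.3 CPM in treated muscle. The treated libraries lay above all others, with a rise of 1.66 ± 0.30 against wildtype (limma adjusted p = 0.0305) and a difference of 1.06 ± 0.30 from mdx vehicle (limma adjusted p = 1). Chrna1, the alpha subunit of the muscle acetylcholine receptor, was at 29.9, 29.1 and 27.6 CPM in wildtype and 76.7, 71.2 and 68.8 CPM in treated muscle (1.29 ± 0.21, limma adjusted p = 0.0192). Its mdx vehicle libraries, at 48.7, 66.4 and 95.8 CPM, covered the treated range. Chrnb1, the beta subunit, rose by 1.06 ± 0.16 (limma adjusted p = 0.0144), and Runx1, a transcription factor induced by denervation, by 1.23 ± 0.16 (limma adjusted p = 0.00829). For both, the mdx vehicle libraries were above wildtype and overlapped the treated ones, with differences from mdx vehicle of -0.03 and 0.20. The delta subunit gene Chrnd had 8.26, 7.47 and 10.1 CPM against 3.52, 3.23 and 3.63 CPM in wildtype without passing (limma adjusted p = 0.109). The sodium channel gene Scn4a, the member lower without overlap, had 519, 358 and 450 CPM against 562, 724 and 704 CPM (limma adjusted p = 0.242). Calls for Musk and Chrna1 were lost without any 1 of the 6 libraries (adjusted p up to 0.117 and 0.0976), for Chrnb1 without wildtype library 2 or 3 or treated library 1 or 2 (up to 0.0683), and for Runx1 without wildtype library 3 (0.0547).

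**Figure D4:**
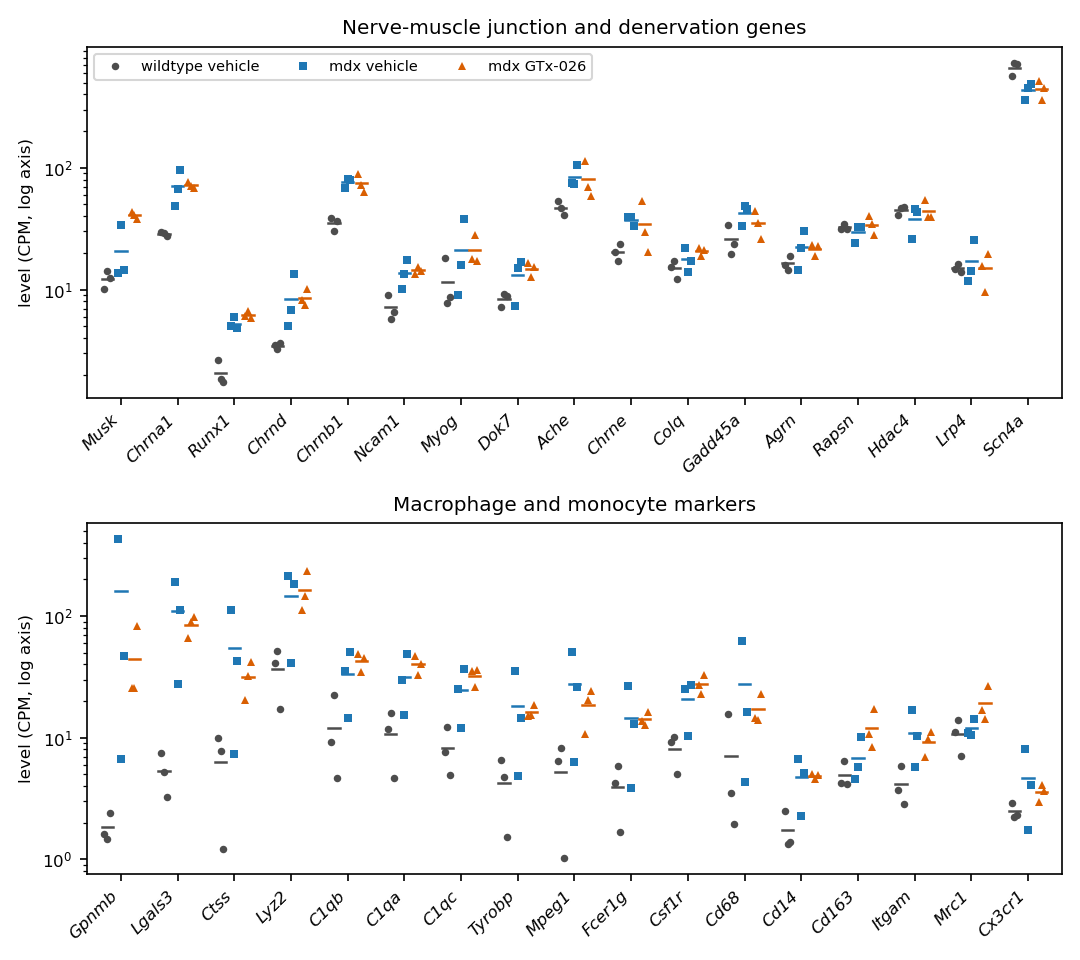
Level in every library (y axis, CPM on a log axis) of the 17 measured nerve-muscle junction and denervation genes (top) and the 17 measured macrophage and monocyte markers (bottom), with circles for wildtype vehicle, squares for mdx vehicle, triangles for mdx GTx-026 and bars for group means. Musk in treated muscle, at 38.3 to 43.3 CPM, is above every other library, and the markers below are higher in treated than in wildtype muscle without overlap except for Cd68.

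Genes of embryonic and regenerating fibres did not move as 1 group. Of 16 measured, 9 were higher and 7 lower, 4 rose and 1, Mybph, fell, against 1.06% and 0.501% of all genes, and the median was 0.38. Igf2, a growth factor of the foetus and of regenerating fibres, rose from 20.2, 16.8 and 24.9 CPM to 92.8, 224 and 98.4 CPM (2.58 ± 0.34, limma adjusted p = 0.00881), with mdx vehicle at 94.3, 109 and 173 CPM, and shares 61.2% of its 50-base words with Gm49394. Myl4 rose from 12.4, 16.8 and 14.8 CPM to 99.4, 146 and 78.4 CPM (2.76 ± 0.45, limma adjusted p = 0.0195), and Ankrd1, a stretch-responsive partner of titin, from 15.0, 9.25 and 8.06 CPM to 64.5, 62.6 and 43.7 CPM (2.32 ± 0.35, limma adjusted p = 0.0157). For Igf2, Myl4 and Ankrd1 the treated and mdx vehicle libraries overlapped, and all 6 were above wildtype. Sarcolipin, the small inhibitor of the calcium pump encoded by Sln, was at 13.2, 17.0 and 1.69 CPM in wildtype and at 147, 46.5 and 168 CPM in treated muscle (3.59 ± 0.73, limma adjusted p = 0.0461). Its mdx vehicle libraries, at 53.1, 65.9 and 132 CPM, were above wildtype and overlapped the treated ones. The Sln call was lost when any library other than mdx vehicle library 1 was left out (adjusted p up to 0.165). Calls for Myl4, without any 1 of the 6 libraries (up to 0.093), and Ankrd1, without wildtype library 2 or 3 or treated library 1 or 2 (up to 0.0828), were lost as well. Embryonic myosin Myh3 had 66.3, 123 and 101 CPM against 58.4, 52.9 and 56.9 CPM in wildtype (limma adjusted p = 0.722), and perinatal myosin Myh8 overlapped between the groups. Of 19 satellite cell and myogenic regulators none passed, 9 were higher and 10 lower and the median was 0.00. Within that list the myogenic factor Myod1 had 43.1, 36.0 and 35.3 CPM against 12.8, 18.9 and 23.8 CPM, with an adjusted p of 0.0921 in limma.

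Macrophage and monocyte markers were higher in treated mdx than in wildtype muscle. All 17 measured of 23 listed markers were higher, 16 of them without overlap against 11% of all genes, with a median of 1.84. Among them 2 rose, Lgals3 and C1qc, against 1.06% of all genes. Against mdx vehicle the median of the list was 0.23, and mdx vehicle stood at 1.45 against the same wildtype libraries. The summed level of the 17 markers was 155, 179 and 67.2 CPM in wildtype muscle, 1287, 181 and 664 CPM in mdx vehicle and 479, 513 and 755 CPM in treated libraries. The treated libraries were thus wholly above wildtype and inside the mdx vehicle range, in which library 2 was at the wildtype level. In a bulk sample, more cells of a type and more RNA per cell cannot be told apart. Lgals3, galectin-3, was at 7.48, 5.26 and 3.26 CPM in wildtype muscle, 192, 27.7 and 113 CPM in mdx vehicle and 66.5, 89.5 and 97.7 CPM in treated muscle (3.79 ± 0.58, limma adjusted p = 0.0159). C1qc, a chain of the first complement component that macrophages make, rose by 1.92 ± 0.39 (limma adjusted p = 0.0461). Its mdx vehicle libraries, at 25.1, 12.1 and 36.5 CPM, overlapped both wildtype and treated libraries. Gpnmb, a glycoprotein of lipid-laden macrophages, differed by 3.79 ± 1.15 with 25.5, 25.6 and 83.1 CPM against 1.62, 1.48 and 2.42 CPM, and did not pass (limma adjusted p = 0.179). Csf1r, the receptor for macrophage growth factor, had 27.0, 22.8 and 32.7 CPM against 9.28, 10.0 and 4.98 CPM in wildtype (limma adjusted p = 0.0548). The Lgals3 call was lost without wildtype library 2 or 3 or any treated library (adjusted p up to 0.0853), and that of C1qc without any 1 of the 6 libraries (up to 0.183).

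Complement genes were also mostly higher, and the 3 C1q chains stand on both lists. Of 18 measured, 17 were higher and 1 lower, 14 were higher without overlap against 11% of all genes, and the median was 1.09. The called members were C1qc and C5ar1, both higher, against 1.06% of all genes. C5ar1, the receptor for the complement fragment C5a, had 4.08, 3.39 and 4.33 CPM in treated muscle against 1.48, 2.27 and 1.10 CPM in wildtype (0.93 ± 0.19, limma adjusted p = 0.0461), a call lost without each library other than mdx vehicle library 1, with adjusted p up to 0.192. Of 20 interferon-stimulated genes none passed or lay apart, with a median of -0.08. Of 17 lymphoid markers 4 were measured, and their summed level spread from 7.11 to 153 CPM in wildtype and from 19 to 116 CPM in treated libraries. Of 10 chemokine and cytokine genes 1 rose (10%, against 1.06% of all genes). This was Cxcl14, from 25.2, 28.6 and 34.9 CPM to 137, 67.8 and 126 CPM (1.81 ± 0.27, limma adjusted p = 0.0142). For C5ar1 and Cxcl14 the mdx vehicle libraries lay above wildtype and overlapped the treated ones. The Cxcl14 call was lost without wildtype library 2 or treated library 1 or 3, with adjusted p up to 0.0664.

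Extracellular matrix genes were higher as a group without any single call. Of 30 measured, 29 were higher and 1 lower, 21 were higher without overlap against 11% of all genes, none passed the test, and the median was 0.94. Their summed level was 1436, 1935 and 2061 CPM in wildtype muscle, 2074, 2015 and 4583 CPM in mdx vehicle and 3866, 2791 and 4647 CPM in treated libraries. Every treated library exceeded every wildtype library in this sum, and the mdx vehicle range overlapped both. Col3a1, the chain of type III collagen, had 661, 344 and 595 CPM in treated and 171, 177 and 134 CPM in wildtype muscle, a difference of 1.68 ± 0.39 (limma adjusted p = 0.0752). Fibronectin Fn1 differed by 1.69 with 139, 90.6 and 256 CPM against 20.2, 74.7 and 59.6 CPM (limma adjusted p = 0.224). Markers of fibro-adipogenic progenitors, the connective tissue cells that make this matrix, were higher for 13 of 14 measured genes, 9 without overlap against 11% of all genes, with a median of 0.61. Their defining receptor Pdgfra rose from 8.79, 12.1 and 10.3 CPM to 27.2, 19.4 and 23.8 CPM (1.10 ± 0.20, limma adjusted p = 0.0317), a call lost without any 1 of the 6 libraries, with adjusted p up to 0.127. Pdgfra was the 1 called marker of that list (7.14%, against 1.56% of all genes). Its mdx vehicle libraries, at 13.4, 18.6 and 20.4 CPM, lay above wildtype and overlapped the treated ones. Matrix genes and these markers stood higher in the same libraries, and the part of cell number in the difference was not tested. Of 17 TGF-beta pathway genes none passed, 11 were higher and the median was 0.23. Of 22 lysosome genes 19 were higher, 14 without overlap against 11% of all genes, none passed, and the median was 0.38, with cathepsin S (Ctss) at 20.5, 32.3 and 41.9 CPM against 9.90, 7.74 and 1.21 CPM in wildtype.

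Genes of energy metabolism were mostly lower than in wildtype, without a call. Of 24 fatty acid oxidation genes 22 were lower, none passed the test, and 4 were lower without overlap, a share not far from the 9.91% of all genes. The median of the list was -0.32 against wildtype, beside -0.59 in mdx vehicle against the same wildtype libraries and 0.26 against mdx vehicle. Of 37 oxidative phosphorylation genes 30 were lower and none passed, with a median of -0.12 beside -0.37 in mdx vehicle. Of 21 genes of the tricarboxylic acid cycle 18 were lower and none passed, with a median of -0.10 beside -0.42. These comparisons share the wildtype libraries. Library by library, the mdx vehicle medians were -1.28, -0.13 and -0.36 for fatty acid oxidation and -0.78, 0.06 and -0.38 for oxidative phosphorylation. For the tricarboxylic acid cycle they were -0.89, 0.01 and -0.34, and library 1 was the lowest in each list. The treated medians, in the same order of lists at -0.61 to -0.03, -0.19 to -0.01 and -0.23 to -0.02, overlapped them. On the deposited scale the medians of the oxidative phosphorylation and tricarboxylic acid cycle lists were 0.01 and 0.02 instead, so their direction hangs on the scaling, and without wildtype library 3 the former was 0.02. Glycolysis and glycogen genes had a median of -0.06 with none past the test, fast-fibre contractile genes had 3 of 14 higher, and slow-fibre genes had 4 of 12 higher with none past the test. The per-library median of the slow-fibre list ran from -1.44 to 1.48 in wildtype and from -1.68 to 1.74 in treated libraries. Nr1d1, a repressor of the circadian clock also known as REV-ERB alpha, was at 181, 144 and 140 CPM in wildtype muscle, 65.2, 57.0 and 66.8 CPM in mdx vehicle and 65.4, 55.9 and 82.1 CPM in treated muscle (-1.19 ± 0.17, limma adjusted p = 0.0116). It was the 1 call among 18 clock genes (5.56%, against 1.56% of all genes), of which 12 were lower. For Nr1d1 both mdx groups stood together below wildtype. The call for Nr1d1 was lost without treated library 1 (adjusted p = 0.0588) and on the deposited scale.

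**Figure D5:**
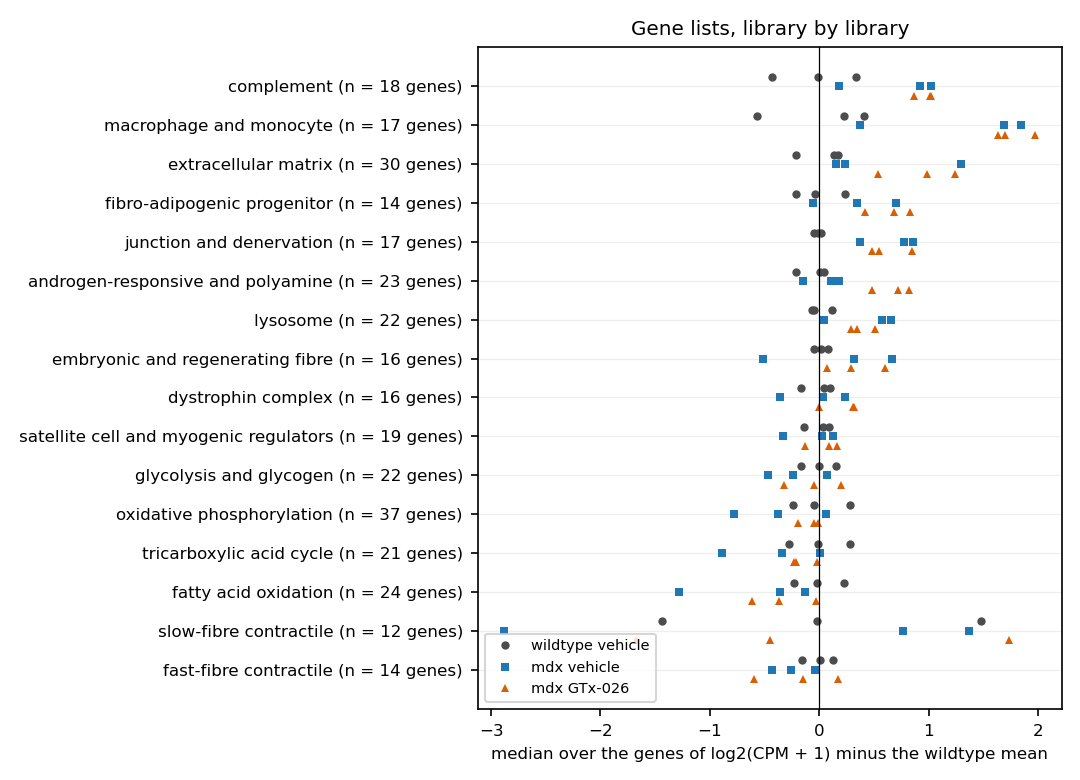
Median, over the measured genes of each of 16 lists, of the difference of log2(CPM + 1) from the wildtype mean (x axis) in every library, with circles for wildtype vehicle, squares for mdx vehicle and triangles for mdx GTx-026. For the androgen-responsive and polyamine list the treated libraries, at 0.48 to 0.82, lie apart from all others. That list was drawn up with earlier results of these libraries known. For the macrophage list 1 mdx vehicle library, at 0.37, sits with wildtype.

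Single members of the stress and growth lists completed the calls. Gpx1, the glutathione peroxidase that removes hydrogen peroxide, rose from 118, 66.8 and 66.0 CPM to 202, 257 and 172 CPM (1.35 ± 0.27, limma adjusted p = 0.0453). Srxn1, sulfiredoxin, rose from 28.1, 27.1 and 28.0 CPM to 43.7, 53.8 and 47.2 CPM (0.77 ± 0.14, limma adjusted p = 0.0354), while the glutathione transferase Gsta4 fell from 20.7, 18.4 and 16.9 CPM to 9.02, 9.85 and 9.23 CPM (-0.92 ± 0.19, limma adjusted p = 0.0461). These 3 were the calls among 19 antioxidant genes (15.8%, against 1.56% of all genes), of which 15 were higher, with a median of 0.08. The mdx vehicle libraries had Gsta4 at 7.04, 11.3 and 11.0 CPM, below wildtype and overlapping the treated ones. They had Gpx1 at 183, 110 and 158 CPM, overlapping both wildtype and treated libraries. Sesn1, a stress-induced inhibitor of the growth kinase mTORC1 and a member of the p53 and the atrophy lists, was at 44.6, 52.6 and 41.7 CPM in wildtype muscle, 41.4, 26.3 and 32.8 CPM in mdx vehicle and 15.2, 24.1 and 23.1 CPM in treated muscle. The treated libraries were below all others, with a change of -1.14 ± 0.21 against wildtype (limma adjusted p = 0.0354). Against mdx vehicle the change of -0.67 ± 0.21 did not pass. Ier3, an immediate early gene, rose by 0.94 ± 0.19 (limma adjusted p = 0.0486), with mdx vehicle above wildtype and overlapping treated muscle. On leaving out single libraries, calls were lost without any 1 of the 6 and mdx vehicle library 3 for Gsta4, Sesn1 and Ier3 (adjusted p up to 0.158, 0.139 and 0.167), without any 1 of the 6 for Srxn1 (0.141), and for Gpx1 without wildtype library 2 or 3, mdx vehicle library 3 or any treated library (0.191). On the deposited scale Gpx1, Gsta4 and Sesn1 did not pass.

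Several lists held no call or repeated 1 already named. None passed among the 21 myostatin and activin genes (median 0.09), the 25 proteasome genes, of which 16 were lower, the 34 ribosomal protein genes (median -0.07) or the 16 antigen presentation genes (median 0.09). The insulin-like growth factor list of 18 held Igf2 as its single call (5.56%, against 1.56% of all genes), and its median was -0.07. The calcium handling list of 20 held Sln (5%, against the same 1.56%), with 14 members lower and a median of -0.23. Among 21 atrophy and autophagy genes Sesn1 was the single call (4.76%, against the same 1.56%), with 13 lower and a median of -0.11. Of the markers of other cells, 14 endothelial, 12 smooth muscle and pericyte, 10 adipocyte, 8 Schwann cell and nerve, 9 tendon and 4 neutrophil and mast cell genes were measured and none passed, with medians of -0.26, 0.11, 0.40, -0.06, 0.08 and 0.38. The smooth muscle, adipocyte, Schwann cell and tendon medians changed sign under some of the alternative settings, and that of the adipocyte list ran from -0.23 to 1.31. The adipocyte marker Adipoq, at 103, 3.85 and 2.27 CPM in wildtype and 7.49, 64.0 and 13.4 CPM in treated muscle, varied widely within both groups.

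Some genes entered no test because a whole group was listed at 0. A gene listed at 0 in all wildtype libraries and above 0 in all treated ones was found 142 times, and the reverse 28 times. Tnnt2, the cardiac and embryonic troponin T, was listed at 0 in wildtype and at 27.0, 29.7 and 21.8 CPM in treated muscle, with 6.57, 8.77 and 33.8 CPM in mdx vehicle. Cdkn2a, which encodes the cell-cycle inhibitors p16 and p19ARF, was listed at 0 in wildtype, at 24.2, 9.63 and 4.68 CPM in treated and at 5.51, 12.7 and 22.0 CPM in mdx vehicle libraries. Trem2, a lipid receptor of macrophages, was listed at 0 in wildtype and at 6.58, 7.53 and 12.4 CPM in treated muscle, and Hal, histidine ammonia-lyase, at 10.8, 9.89 and 19.3 CPM. For these 4 the mdx vehicle libraries were above 0 as well. In the other direction Efcab6, an EF-hand calcium-binding protein, was at 10.7, 14.8 and 14.8 CPM in wildtype and listed at 0 in all 6 mdx libraries. No fold is given, since no value between 0 and 10 is listed on the deposited scale and low values may have been set to 0. Of the sequence records, 431 were at 0 in at least 1 whole group, and 0 were at 0 in only some libraries of a group. Zeros thus came for a whole group together, so a group at 0 cannot be read as 3 libraries each found at 0. Hal and Efcab6 were chosen after their values were seen.

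Read beside the mdx vehicle libraries, 91 of the 240 called genes had an unadjusted p under 0.05 in limma for treated against untreated mdx muscle. Of all 15372 tested genes 472 did. After adjustment 2 of the 240, Inmt and Slc30a2, passed. The comparisons share the treated libraries, so the 91 are no independent count. Further genes were chosen after their values were seen, for having all treated libraries above both other groups. Their separation is thus no independent evidence. Tfcp2l1, a transcription factor of the grainyhead family, was at 5.72, 5.88 and 6.08 CPM in wildtype muscle, 6.82, 12.7 and 10.1 CPM in mdx vehicle and 35.1, 29.1 and 22.1 CPM in treated muscle. It rose by 2.09 ± 0.23 against wildtype (limma adjusted p = 0.00461) and differed by 1.47 ± 0.23 from mdx vehicle (limma adjusted p = 0.184). Cbr2, a carbonyl reductase, was at 10.2, 16.1 and 11.6 CPM in wildtype muscle, 11.0, 17.1 and 19.1 CPM in mdx vehicle and 67.8, 48.5 and 34.0 CPM in treated muscle, a rise of 1.88 ± 0.28 against wildtype (limma adjusted p = 0.0154). Mgat4b, an enzyme that branches N-glycans, rose from 32.7, 36.1 and 35.0 CPM to 89.3, 71.3 and 73.8 CPM, beside 38.4, 42.7 and 49.5 CPM in mdx vehicle (1.15 ± 0.14, limma adjusted p = 0.00653). Ifi205, an interferon-inducible gene, rose from 1.72, 3.20 and 1.39 CPM to 9.99, 9.38 and 8.90 CPM, beside 2.68, 3.35 and 3.32 CPM in mdx vehicle (1.79 ± 0.21, limma adjusted p = 0.00534). None of these 4 passed against mdx vehicle after adjustment. The Cbr2 call was lost without wildtype library 3 or treated library 1 or 2, with adjusted p up to 0.081.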

How the data were processed

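Polyadenylated RNA of 9 libraries was sequenced on an Ion Torrent Proton, per the labels' protocols. The submitters' processing notes name build GRCm38.p3 and the tools HTSeq 0.6.1p1, TopHat2 2.0.13, DESeq2 1.6.3, SAMtools 0.1.19 and Bowtie2 2.2.4, without their roles. The deposited signal of each of 46442 sequence records was scaled by the authors: judged by the values, reads were multiplied by 1 step per library, since values under 10000 came within 0.1 read of whole multiples of it. Count tests were not run, since these reads could not be accepted as counts. Records above 0 in all libraries were summed by gene symbol (15372 of 15593 symbols). Libraries were rescaled by an unweighted trimmed mean of log ratios (30% trimmed on the ratio, 5% on the level; factors 0.868 to 1.28), and CPM uses the listed reads.

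Tests used limma 3.58.1 in R 4.3.3 on log2(CPM + 1), which understates changes of low genes, with a trended prior variance, all 9 libraries in a single model, 6 residual and 3.59 prior degrees of freedom, two-sided p and Benjamini-Hochberg adjustment over all tested genes. The model was tested on simulated data. Named genes were Dmd; the 12 largest rises and 12 largest falls among called genes at 5 CPM or more without overlap; and of each of 42 lists the 2 members with the largest change at 5 CPM or more and every called member. The lists and the genes were chosen with earlier results of these data known. The mitochondrially encoded list had no measured member. Positions are from GENCODE vM21, which placed 12909 of the tested symbols. Some genes that the rules name are not reported here, and the androgen and polyamine plot leaves out a measured gene for the same reason.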

Additional observations from a re-analysis of the deposited data

Results flagged for a closer look

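The treated mdx libraries differed from the mdx vehicle libraries for 2 genes by the test of that difference. Inmt was 2.34 higher on the log2 scale in mdx muscle given GTx-026 than in mdx muscle given vehicle (limma, Benjamini-Hochberg adjusted p = 0.00614, higher in 3 of 3 libraries). Slc30a2 was 3.10 higher on the same scale (limma adjusted p = 0.0337, higher in 3 of 3 libraries). The Slc30a2 call was lost with a pseudocount of 5 (adjusted p = 0.0702), in the model of the 6 mdx libraries alone and on leaving out any library other than treated library 2, and the Inmt call without mdx vehicle library 3 or treated library 1. Since both mdx groups are set against the same wildtype libraries, this is also the difference between their changes from wildtype.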

How the results depend on the processing

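No paired analysis was possible because the labels number the samples 1 to 9 and no number is shared by groups. Against the count of 240 genes, the model of the 6 libraries alone gave 408, no filter on low values 510 and limma array weights 887, and leaving out 1 library gave 50 to 371. For treated against untreated mdx muscle, with 2 genes in the main analysis, the model of the 6 mdx libraries alone gave 1, the deposited scale 4, a pseudocount of 5 gave 1, no filter 95, array weights 4, and leaving out 1 library gave 0 to 2. The count was 0 without mdx vehicle library 3 or treated library 1, when 863 and 439 genes had an unadjusted p under 0.05. Median-of-ratios scaling, pseudocounts of 0.5, 5 and 0.04, a minimum of 1 CPM, the largest record per gene and an untrended prior gave 203 to 242 genes against wildtype. The pseudocount of 0.04 was chosen after seeing the data. The deposited scale moved the median of all genes from -0.01 to 0.09, and 179 of its 240 genes were among the 240.

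Of 51 called genes named, 42 passed in all 11 settings other than leaving out 1 library, 19 also on leaving out each library, and none changed direction. The 9 that did not pass throughout the 11 were Sln, C1qc, Gpx1, Ier3, C5ar1, Gsta4, Sesn1, Nr1d1 and Mybph. Genes that had not passed changed direction as follows. Cd52 was at -0.000615 with a pseudocount of 5. On leaving out 1 library, log2 changes ran from -0.78 (without wildtype library 3) to 1.35 for Cd52, from -0.58 (wildtype library 3) to 1.75 for Coro1a, from -0.046 (wildtype library 3) to 2.98 for Cfd, from -1.85 to 0.036 (wildtype library 2) for Psmb9, from -1.68 to 0.13 (treated library 1) for Hbb-bs and from -1.24 to 0.066 (treated library 1) for Hbb-bt. Without treated library 2, Cd52 was at -0.61 and Coro1a at -0.33. The cause was not tested. Of 41 list medians 20 changed sign under some setting. The edgeR and DESeq2 alternatives were not run. With 3 libraries a group, genes that did not pass may still differ.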

Other observations

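Tdg, a DNA repair glycosylase, and Gm9855, a processed pseudogene that shares 76.5% of its 50-base words with Tdg, moved in opposite directions. Tdg was at 17.4, 19 and 22.7 CPM in wildtype muscle, 4.33, 8.09 and 6.6 CPM in mdx vehicle and 7.96, 6.5 and 5.80 CPM in treated muscle (-1.42 ± 0.22, limma adjusted p = 0.016). Gm9855 was at 2.59, 2.72 and 2.93 CPM in wildtype muscle, 11.6, 12.5 and 13.6 CPM in mdx vehicle and 14.1, 11.8 and 13.5 CPM in treated muscle (1.91 ± 0.14, limma adjusted p = 0.00088). For both genes all 6 mdx libraries lay apart from wildtype and the mdx groups overlapped. Reads may be split between them, and these genes were chosen after their values were seen. The Tdg call was lost without wildtype library 2 or 3 or any treated library, with adjusted p up to 0.0913.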
